A study of Mus musculus with 3 samples.

Results

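Redox, antioxidant and glutathione genes were examined in RNA sequencing libraries of pooled glomerular cells. The 54 genes were chosen by symbol and sorted by role into 6 groups: NADPH oxidases, superoxide and peroxide removal, thioredoxin, glutathione, Nrf2 control, and iron and haem. All 54 were found among the 39304 rows of the table. Glomeruli, the tufts of capillaries where the kidney filters blood, were taken with magnetic beads from a single male C57BL/6 mouse, wild type and 8 weeks old, and single cells were captured on a Fluidigm C1 chip. The cDNA of 15 mesangial cells, the contractile cells between the capillaries, and 15 endothelial cells, which line them, was mixed and split into 3 aliquots, each made into a library. The wells had been typed by qPCR of marker genes, so the pool holds cells selected by those markers, and no treated or control group exists. Every spread below is an SD over the 3 aliquots and measures library making and sequencing, not mice or cells. Which of the 2 cell types made a transcript, and whether more cells or more RNA per cell raised it, cannot be told apart in a pool.

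Reactive oxygen is made on purpose by NADPH oxidases, membrane enzymes that pass electrons from NADPH to oxygen and give superoxide or hydrogen peroxide. Superoxide dismutases turn superoxide into hydrogen peroxide, which catalase splits into water and oxygen and which glutathione peroxidases and peroxiredoxins reduce with electrons that come mainly from glutathione or thioredoxin. The transcription factor Nrf2, held in check by Keap1, drives many of these genes, and ferritin keeps free iron away from peroxide. In the glomerulus, Nox4 is the oxidase most often studied in mesangial cells.

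Levels are the deposited FPKM, read counts divided by gene length in kilobases and by library size in units of 1000000 reads, and a gene was called detected when it reached 1 FPKM in every aliquot. By this measure 35 of the 54 genes were detected, 5 had reads but fell under the limit, and 14 were listed at 0 in each aliquot. Over the series 21.7% of all rows and 36.5% of protein-coding rows were detected, and each count of detected genes below is to be set against these shares. Only 11142 of all 39304 rows, and 9660 of 21226 protein-coding rows, were above 0 in some aliquot. Each count of genes listed at 0 is to be set against the many other rows at 0. The median over the 54 genes was 14.4 FPKM, beside 0 over all rows and 10.6 over the 11142 rows above 0. The genes took 0.769%, 0.776% and 0.780% of the reads of aliquots 1, 2 and 3, by reads recovered from the deposited values. These shares may be too low, because the recovered reads of some genes, such as Ftl1 and Cyba, may be too low. Removal of superoxide and peroxide (summed level 3909 ± 10.1 FPKM) and iron storage (2644 ± 24.1 FPKM for iron and haem) carried most of the summed level. The glutathione group followed with 1638 ± 14.7 FPKM, the thioredoxin group with 739 ± 11.5 FPKM, NADPH oxidases with 151 ± 5.41 FPKM and Nrf2 control with 134 ± 2.32 FPKM. This order depends on the gene lengths, which the SDs do not cover. With lengths scaled to the longest annotated transcript, glutathione (Gstm1 733, Gstm2 367 FPKM) passed iron and haem (Fth1 649, Ftl1 290 FPKM). Nrf2 control (Nfe2l2 90.7 FPKM) then passed NADPH oxidases (Cyba 76.5 FPKM). Both changes rest on lengths of Ftl1 and Cyba worked back from the deposited values. Those lengths may be too short by a whole factor, which would make the scaled levels too low, so neither change is certain.

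**Figure D1:**
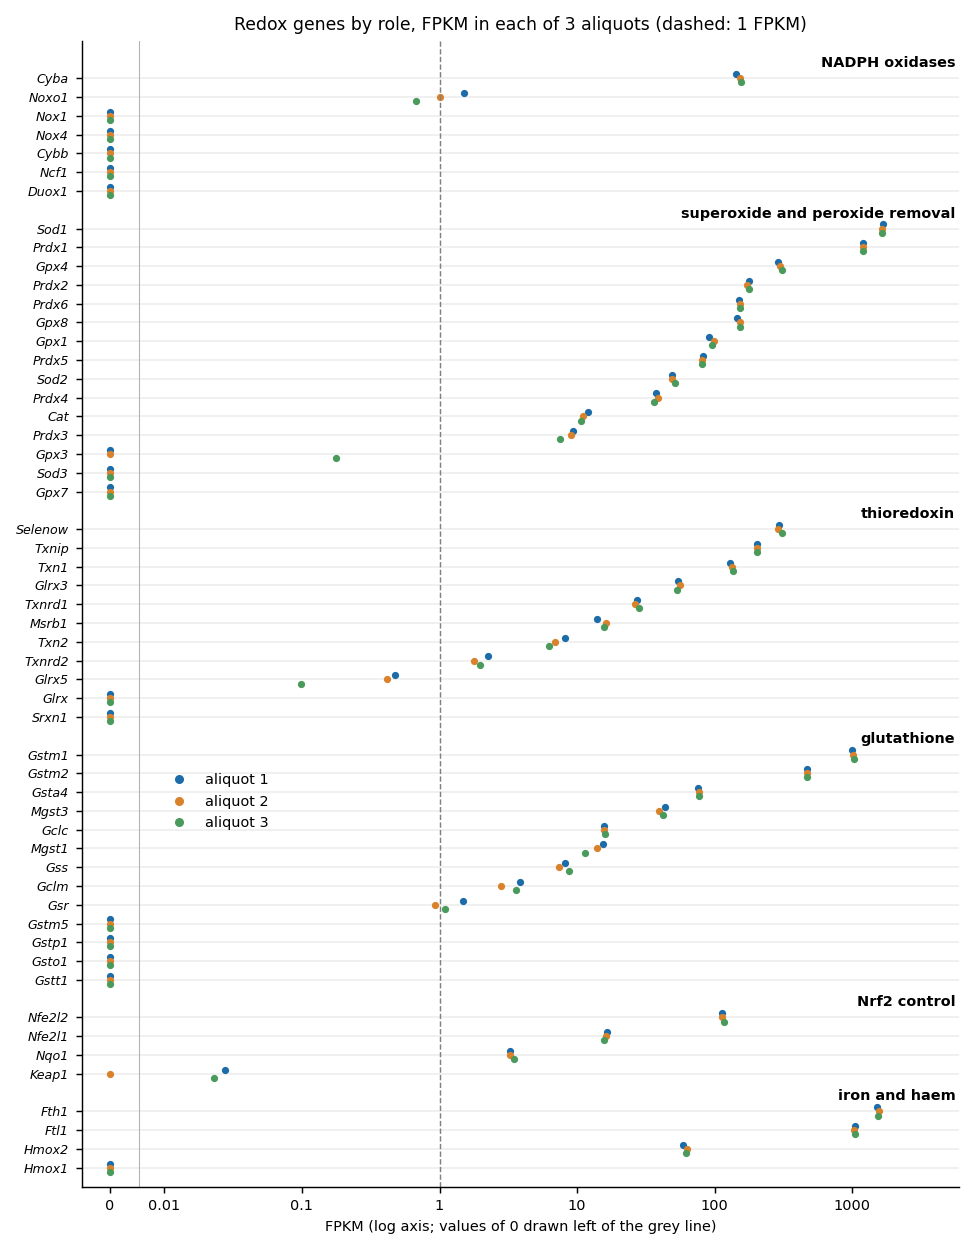
FPKM of the 54 genes (log axis) in each of the 3 aliquots, by role and in order of level, with values of 0 drawn left of the grey line and the dashed line at 1 FPKM. In all, 35 genes lie right of the dashed line in every aliquot, and the 14 genes listed at 0 include 5 of the 7 NADPH oxidase genes. A 0 was common, as 9660 of 21226 protein-coding rows were above 0 in some aliquot.

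The libraries held 9141422, 10427635 and 10976563 reads, as recovered from the steps of the deposited values. Of the markers listed for the 2 cell types, 8 of 8 mesangial markers (summed level 8715 to 9159 FPKM over the aliquots) and 10 of 10 endothelial markers (2833 to 2896 FPKM) were detected. The wells had been typed by marker genes, and the lists were chosen with earlier results of these data known. This detection is therefore no independent check of the cell labels. Markers of podocytes, glomerular cells that were not meant to be in the pool, were also detected, 8 of 8 with a summed level of 317 to 337 FPKM, and their part in the levels below was not tested. Of 12 macrophage and neutrophil markers 11 were listed at 0, among them Ptprc, Cd68, Adgre1 and Csf1r, and the other, Fcer1g, had 68.0 ± 1.74 FPKM. All 6 erythroid markers were listed at 0, and the proximal tubule list reached at most a summed 0.0694 FPKM.

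Among the NADPH oxidases a shared membrane subunit was abundant, and no catalytic subunit was detected. Cyba (ENSMUSG00000006519, chromosome 8, 122424776 to 122432930, minus strand, GRCm38) encodes p22phox, the membrane partner that Nox1, Nox2 and Nox4 need. It had 144, 152 and 155 FPKM in aliquots 1, 2 and 3 (mean 150.2 ± 5.82), with the 3 values close together. The catalytic genes Nox1, Nox4 and Duox1, and Cybb, which encodes Nox2 of phagocytes, were listed at 0 in each aliquot, as was Ncf1, which encodes the organiser p47phox. For the genes listed at 0, 3 reads over the 3 libraries together would correspond to 0.0187 to 0.155 FPKM, given the mean length of their annotated transcripts and counting error only. Noxo1, the organiser of the Nox1 complex, had 1.49, 1.01 and 0.670 FPKM from 13, 10 and 7 reads. Its pooled level was 1.03 FPKM with an exact 95% Poisson interval of 0.696 to 1.47, which covers counting error only. In the annotation 70.4% of the exonic bases of Noxo1 lie in exons of Tbl3 on the other strand, and the strand setting of the counting is not given. Tbl3 itself had 0.129 ± 0.0364 FPKM.

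From a list of further oxidase genes, the small GTPase Rac1, which activates Nox1 and Nox2 complexes, had 256 ± 4.37 FPKM. Of the exonic bases of Rac1, 51.4% lie in exons of Daglb on the other strand. Poldip2, a reported Nox4 partner, had 0.471 ± 0.154 FPKM, and Nox3, Noxa1 and Ncf4 were among the 7 of 10 genes listed at 0.

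Among the superoxide dismutases the transcript of the cytosolic enzyme had the highest level. Sod1 (ENSMUSG00000022982, chromosome 16, 90220754 to 90226329, plus strand), the copper and zinc dismutase of the cytosol, had 1675, 1635 and 1654 FPKM (mean 1655 ± 20.0), rank 23 of all rows. Sod2, the manganese enzyme of mitochondria, had 49.0, 49.2 and 51.6 FPKM (mean 49.9 ± 1.44). Sod1 thus stood 5.05 ± 0.05 above Sod2 on the log2 scale, 33.2-fold, and took 97.1% ± 0.0920 of the summed Sod level. This ratio depends on the gene lengths, and was 3.05 with lengths scaled to the longest transcript and 5.68 with the longest coding transcript. Sod3, the secreted dismutase of vessel walls, was listed at 0 in each aliquot. Ccs, the chaperone that loads copper into Sod1, had 16.5 ± 0.801 FPKM.

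Transcripts for peroxide removal were spread over peroxiredoxins and glutathione peroxidases, with a low level for catalase. Peroxiredoxins, which reduce peroxide with a reactive cysteine, were all detected, 6 of 6, with a summed level of 1649 ± 3.81 FPKM. Prdx1 (ENSMUSG00000028691, chromosome 4, 116685544 to 116700822, plus strand), a cytosolic member, had 1192, 1202 and 1191 FPKM (mean 1195 ± 5.92) and took 72.5% ± 0.204 of that sum. Prdx2, its close cytosolic relative, had 178, 171 and 176 FPKM, and Prdx6, the 1-cysteine form with a phospholipase activity, 149, 152 and 153 FPKM. Prdx5 (81.5 ± 0.520 FPKM), found in several compartments, and Prdx4 of the endoplasmic reticulum (37.3 ± 1.26 FPKM) came next. Of the exonic bases of Prdx5, 19.1% lie in exons of Trmt112 on the other strand, which had 37.8 ± 2.89 FPKM. Prdx3, the mitochondrial peroxiredoxin, was lowest with 9.25, 9.08 and 7.52 FPKM, and its log2 ratio to Prdx5 was -3.25 ± 0.16 (-2.50 with the longest transcript length). Catalase (Cat), the peroxisomal enzyme, had 12, 11.1 and 10.6 FPKM, and its log2 ratio to Gpx1 was -3.08 ± 0.14.

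Several of the peroxidases and thioredoxin enzymes are selenoproteins, in which a TGA codon is read as selenocysteine at the active site instead of as a stop. The glutathione peroxidase codons are shown because they set the selenium-dependent members apart from the relatives Gpx7 and Gpx8, which have no such codon annotated. Each line gives the coding strand 5′ to 3′ around the selenocysteine codon annotated by GENCODE M21 on GRCm38, with that codon in capitals.
Gpx1: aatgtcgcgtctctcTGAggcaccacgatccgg
Gpx4: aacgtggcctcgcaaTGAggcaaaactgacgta
Gpx3: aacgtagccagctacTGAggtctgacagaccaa
The codons lie at chr9:108339451-108339453 (Gpx1, codon 47 of the reading frame), chr10:80054737-80054739 (Gpx4, codon 129 of its longest transcript) and chr11:54907256-54907258 (Gpx3, codon 73), all on the plus strand.

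Among the glutathione peroxidases the lipid peroxidase led. Gpx4 (ENSMUSG00000075706), which reduces lipid peroxides in membranes, had 290, 299 and 306 FPKM (mean 298 ± 8.14) and 54.9% ± 0.437 of the summed Gpx level. Gpx8, a cysteine-based enzyme of the endoplasmic reticulum, had 144, 152 and 154 FPKM (mean 150.1 ± 5.02), and Gpx1, the general cytosolic enzyme, 91.2, 98.1 and 95.9 FPKM (mean 95.1 ± 3.52). The log2 ratio of Gpx1 to Gpx4 was -1.65 ± 0.04. Of the 50-base windows of the longest Gpx4 transcript 61.7% also occur in other genes, all of them in the pseudogene Gpx4-ps2. Gpx3, the plasma peroxidase that kidney tubules secrete, had 0, 0 and 0.175 FPKM, which is 2 reads in aliquot 3, and Gpx7 was listed at 0, as were Gpx2, Gpx5 and Gpx6. In order of level, the detected genes of the superoxide and peroxide group had ranges over the aliquots that did not overlap those of their neighbours, with the exception of Prdx6 and Gpx8. The order itself depends on the gene lengths. With lengths scaled to the longest transcript, Sod1 (269 FPKM) fell below Prdx1 (489 FPKM), and Gpx8 (146 FPKM) passed Prdx2 (124 FPKM). With the longest coding transcript Sod1 (1668 FPKM) stayed above Prdx1. Of 10 further genes of this role 5 were detected. Park7 (DJ-1), a peroxide-sensitive protein, had 145 ± 6.5 FPKM, and the metallothioneins Mt1 and Mt2, which bind metal ions, had 55.3 ± 2.06 and 32.1 ± 1.69 FPKM. Of the exonic bases of Mt2, 73.5% lie in exons of Gm45774 on the other strand.

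Transcripts of the cytosolic thioredoxin and its reductase had higher levels than those of the mitochondrial pair. Txn1, the cytosolic thioredoxin that hands electrons to peroxiredoxins, had 128, 133 and 136 FPKM (mean 132 ± 3.64), and its mitochondrial counterpart Txn2 8.10, 6.90 and 6.27 FPKM (mean 7.09 ± 0.933). Txn1 stood 4.23 ± 0.23 above Txn2 on the log2 scale, 18.7-fold, and 5.35 above it with the longest transcript length. The reductases that recharge them had the same order: Txnrd1 with 27.4, 26.2 and 28.3 FPKM and the mitochondrial Txnrd2 with 2.26, 1.79 and 1.98 FPKM, a log2 ratio of 3.77 ± 0.15 (5.26 with the longest transcript length). The Txnrd2 level rests on 59 reads. Txnip, the arrestin-like protein that binds and blocks thioredoxin, had 203, 202 and 202 FPKM (mean 202 ± 0.50), 0.62 ± 0.04 above Txn1 on the log2 scale. With lengths scaled to the longest transcript this order turned, at -0.39, so the sign of this difference rests on the gene lengths.

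**Figure D2:**
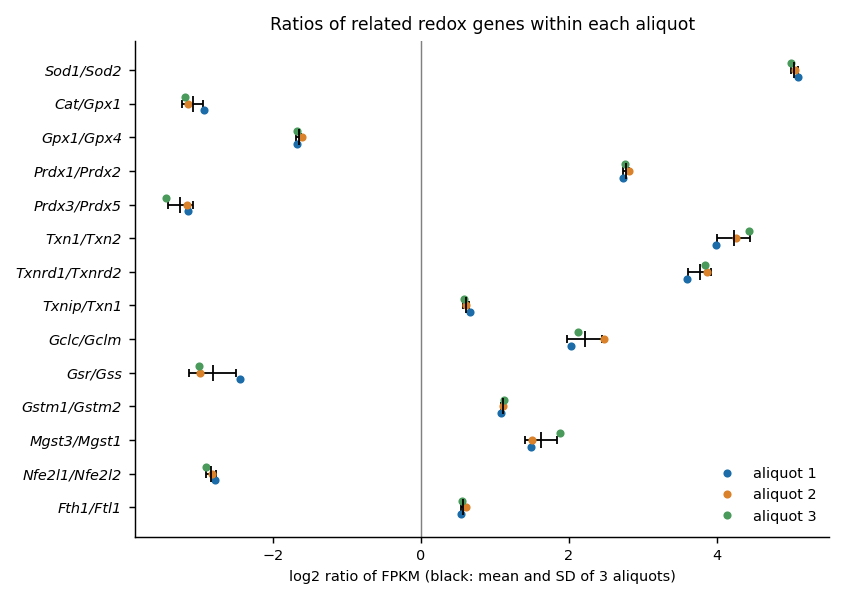
Log2 ratio of FPKM for 14 pairs of related genes, with a point for each aliquot and black marks for the mean and SD over the 3 aliquots. The points of every pair lie on 1 side of 0, from 5.05 for Sod1/Sod2 to -3.25 for Prdx3/Prdx5.

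Selenocysteine stands at the end of the thioredoxin reductases and near the start of selenoprotein W, and these codons are shown for that contrast, in the same form as above.
Txnrd1: ctccagtctggctgcTGAggttaa
Txnrd2: actgtgactggttgcTGAggctaa
Selenow: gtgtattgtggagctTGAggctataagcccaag
Msrb1: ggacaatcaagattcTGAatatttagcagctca
In Txnrd1 (chr10:82896037-82896039, plus strand, codon 612) and Txnrd2 (chr16:18477772-18477774, plus strand, codon 526) 1 sense codon and the stop follow the TGA. In Selenow (chr7:15920464-15920466, minus strand) it is codon 13, and in Msrb1 (chr17:24740158-24740160, plus strand) codon 95.

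Selenow, a small selenoprotein abundant in muscle, had the highest level of the thioredoxin group, with 293, 291 and 308 FPKM (mean 297 ± 9.48). Msrb1, which repairs oxidised methionine, had 13.9, 16.3 and 15.5 FPKM. Glrx3, a glutaredoxin that carries iron-sulfur clusters, had 54.5, 55.9 and 53.4 FPKM, while Glrx5, its mitochondrial relative, had 0.471, 0.412 and 0.0980 FPKM from 9 reads in all (pooled 0.317 FPKM, exact 95% Poisson interval 0.145 to 0.601, counting error only). The cytosolic glutaredoxin gene Glrx and Srxn1, the sulfiredoxin that restores overoxidised peroxiredoxins, were listed at 0 in each aliquot. Prdx1, a substrate of Srxn1, had 34275 reads in the same libraries. Of 10 further genes of this role 7 were detected, led by the thioredoxin-like Txndc17 (264 ± 2.20 FPKM), the mitochondrial glutaredoxin Glrx2 (86.6 ± 4.74 FPKM), Txndc12 of the endoplasmic reticulum (55.4 ± 4.04 FPKM) and Txndc9 (47.9 ± 3.63 FPKM). Msrb2 and the nucleoredoxin gene Nxn were listed at 0.

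Over all 24 mouse genes with an annotated selenocysteine codon, 16 were detected and 7 were listed at 0. The 7 among the redox genes gave 6 detected, with Gpx3 below the limit, and the other 17 gave 10. The highest outside the redox genes were Selenop, which carries selenium in plasma and has 10 such codons here (848 ± 7.05 FPKM), Selenok (467 ± 5.25 FPKM), Selenof (399 ± 7.86 FPKM) and Selenom (98.4 ± 1.73 FPKM). Gpx4 and Selenow lay between Selenof and Selenom in every aliquot, and Gpx1 overlapped Selenom. Of the 15 genes on the list of selenocysteine synthesis and other selenoproteins 13 were detected, and the exceptions, listed at 0, were Selenon and Sephs2, the enzyme that makes the selenium donor. Sepsecs, which forms selenocysteine on its tRNA, had 16.9 ± 1.06 FPKM, Secisbp2, which binds the insertion element, 6.79 ± 0.450 FPKM, and the elongation factor Eefsec 5.07 ± 0.212 FPKM.

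**Figure D3:**
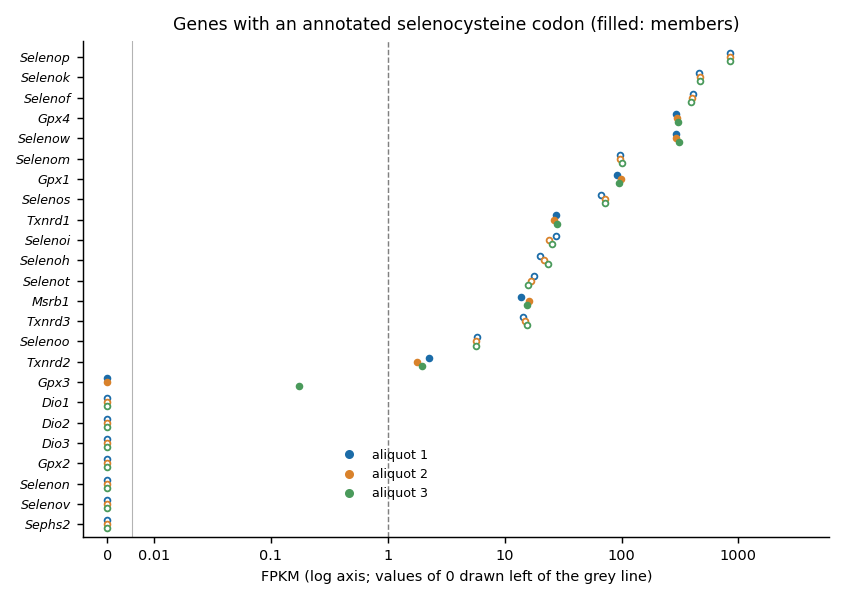
FPKM (log axis) of the 24 genes with an annotated selenocysteine codon in each of the 3 aliquots, with filled points for the 7 redox genes and values of 0 left of the grey line. Gpx4 and Selenow are the highest of the filled points at 298 and 297 FPKM, below the open points of Selenop, Selenok and Selenof.

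In the glutathione group the transferases Gstm1, Gstm2, Gsta4 and Mgst3 had higher levels than the enzymes that make and recycle glutathione, while Mgst1 was below Gclc and 4 other transferases were listed at 0. Gclc, the catalytic subunit of the rate-limiting ligase, had 15.7, 15.7 and 15.8 FPKM (mean 15.7 ± 0.0794). Gclm, its modifier subunit, had 3.82, 2.81 and 3.62 FPKM, so that Gclc lay 2.21 ± 0.24 above it on the log2 scale (4.18 with the longest transcript length). Gss, which completes the peptide, had 8.12, 7.33 and 8.74 FPKM. Gsr, which returns oxidised glutathione to its reduced form, had 1.49, 0.924 and 1.10 FPKM, below the limit in aliquot 2 only, and rests on 44 reads (exact 95% Poisson interval of the pooled level 0.840 to 1.55 FPKM, counting error only). The log2 ratio of Gsr to Gss was -2.81 ± 0.32 (-2.07 with a pseudocount of 1 FPKM).

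The transferases, which couple glutathione to electrophiles, were led by a pair of neighbours of the mu class. Gstm1 (ENSMUSG00000058135, chromosome 3, 108012255 to 108017973, minus strand) had 990, 1018 and 1020 FPKM (mean 1009 ± 16.9), rank 50 of all rows. Gstm2 (ENSMUSG00000040562, chromosome 3, 107981702 to 107986453, minus strand) had 468, 472 and 466 FPKM (mean 469 ± 3.15), and Gstm1 lay 1.11 ± 0.03 above it on the log2 scale. The rest of this cluster was near 0: Gstm4, beside Gstm1, had 1.66, 1.09 and 0.970 FPKM, Gstm3, beside Gstm2, had 0, 0 and 0.0702 FPKM, and Gstm5, Gstm6 and Gstm7 were listed at 0. Near-identical sequence touches these levels: 23.1% of the 50-base windows of Gstm1 and 9.36% of those of Gstm2 also occur in transcripts of other genes. How reads with several matches were treated is not given, so the split between the mu genes is uncertain.

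Other classes were lower or at 0. Gsta4, which detoxifies the lipid peroxidation product 4-hydroxynonenal, had 75.4, 77.4 and 77.4 FPKM. Gstp1, the pi class enzyme, was listed at 0 together with Gstp2 and Gstp3, and 62.3% of the windows of Gstp1 are shared, with Gstp2 as the main partner. Gsto1 and Gstt1, with no shared window, were also listed at 0, while Gstt2 of the same theta cluster had 8.80 ± 1.18 FPKM. Over the 22 soluble transferase genes matched by symbol, 7 were detected and 13 were listed at 0. This count is near the share over all protein-coding rows, of which 36.5% were detected. The membrane-bound enzymes Mgst3 and Mgst1 had 43.3, 39.5 and 42.0 FPKM and 15.4, 13.9 and 11.4 FPKM, a log2 ratio of 1.62 ± 0.22.

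**Figure D4:**
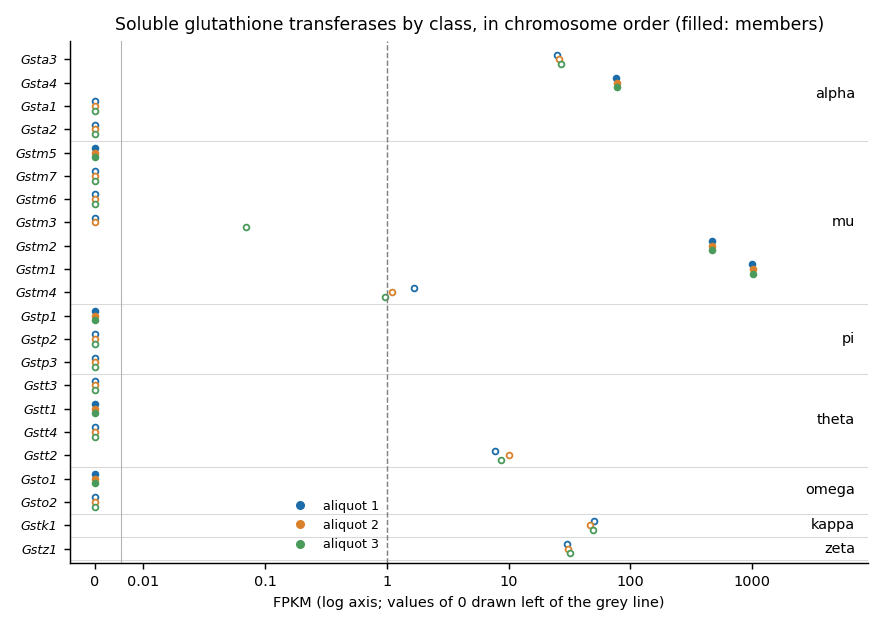
FPKM (log axis) of the 22 soluble glutathione transferase genes in each of the 3 aliquots, grouped by class and in chromosome order within it, with filled points for the genes studied here and values of 0 left of the grey line. Gstm1 and Gstm2 stand at 1009 and 469 FPKM beside mu class neighbours at or below 1.66 FPKM in every aliquot.

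Of 27 further genes of glutathione use 11 were detected, near the share over all protein-coding rows (36.5%). Glo1, which removes methylglyoxal with glutathione, led with 247 ± 4.90 FPKM, followed by Ggt5, a gamma-glutamyl transferase of the cell surface (148 ± 0.867 FPKM), Gstk1 (48.7 ± 1.85 FPKM) and the S-formylglutathione hydrolase Esd (37.8 ± 2.29 FPKM). The cystine importer Slc7a11, Ggt1, abundant in proximal tubule, and Ggct were listed at 0. Of 10 genes that supply NADPH 7 were detected: the isocitrate dehydrogenase Idh1 of the cytosol had 255 ± 4.99 FPKM, against 10.8 ± 0.962 FPKM for G6pdx, the first enzyme of the pentose phosphate pathway. Taldo1 and Tkt of that pathway had 23.2 ± 1.95 and 12.4 ± 0.911 FPKM, and Mthfd2 was listed at 0.

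In the Nrf2 group the transcript of the factor was abundant and that of its inhibitor was nearly without reads. Nfe2l2 (ENSMUSG00000015839, chromosome 2, 75675513 to 75704641, minus strand), which encodes Nrf2, had 112, 114 and 117 FPKM (mean 114 ± 2.59). Keap1, the adaptor that marks Nrf2 for breakdown, had 0.0277, 0 and 0.0231 FPKM, 1 read each in aliquots 1 and 3 (pooled 0.0166 FPKM, exact 95% Poisson interval 0.00201 to 0.0599, counting error only). No 50-base window of Keap1 is shared with another gene, and 10.9% of its exonic bases overlap Gm16754 on the other strand, which was at 0. The partners of Keap1 in the ligase were detected, Rbx1 with 142 ± 5.91 FPKM and Cul3 with 82.7 ± 0.902 FPKM, as was Sqstm1, an autophagy receptor that binds Keap1, with 82.2 ± 3.05 FPKM. Nfe2l1, the related factor Nrf1 of the endoplasmic reticulum, had 16.4, 16.2 and 15.6 FPKM, a log2 ratio to Nfe2l2 of -2.83 ± 0.07. Nqo1, a quinone reductase widely used as an Nrf2 target, had 3.24, 3.27 and 3.46 FPKM (mean 3.32 ± 0.119). Of 12 further genes of Nrf2 control 6 were detected, among them the repressor Bach1 (22.0 ± 1.53 FPKM), while Nfe2l3, Bach2 and Maff were listed at 0.

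Nrf2 binds the antioxidant response element, so its core TGACNNNGC was searched on both strands from 250 bases before to 50 bases after each RefSeq gene start. Of the 54 genes 48 had at least 1 such window in the RefSeq table (GRCm38.p6), and 8 of these 48 (16.7%) held the core, against 14% of all 27025 genes with a window and 17% of the 6365 detected genes with one. The share among these genes is close to that of genes in general. Its letters can overlap those of the AP-1 motif TGANTCA. The core was found for Sod1, Prdx1, Txnrd1, Srxn1, Gclm, Gstm5, Mgst1 and Nfe2l2. Levels of 4 of them span the range from abundant to listed at 0, and their sites are shown for that reason, in the direction of the core, with the core in capitals.
Prdx1: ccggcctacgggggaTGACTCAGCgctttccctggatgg
Txnrd1: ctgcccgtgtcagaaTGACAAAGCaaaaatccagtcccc
Gclm: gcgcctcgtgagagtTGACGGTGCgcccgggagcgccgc
Gstm5: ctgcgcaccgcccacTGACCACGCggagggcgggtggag
These stretches lie at chr4:116685451-116685489 (minus strand), chr10:82859099-82859137 (minus strand), chr3:122245408-122245446 (minus strand) and chr3:107895797-107895835 (plus strand), with the core centred 129, 88, 130 and 38 bases before the RefSeq gene start. For Txnrd1 only 1 of 3 windows held the core, and the RefSeq start of that window lies inside the annotated gene, which begins at 82833951. Their genes had 1195, 27.3, 3.42 and 0 FPKM in the same order. A match is a run of letters and not evidence of binding.

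Ferritin transcripts were among the most abundant of the pool, and of the haem oxygenase genes only the constitutive one was above 0. Fth1 (ENSMUSG00000024661, chromosome 19, 9980598 to 9985098, plus strand), the ferritin heavy chain that oxidises iron for storage, had 1518, 1568 and 1548 FPKM (mean 1545 ± 25.1), rank 27. Ftl1, the light chain, had 1040, 1029 and 1047 FPKM (mean 1039 ± 9.45), rank 48, and Fth1 lay 0.57 ± 0.03 above it on the log2 scale (1.16 with the longest transcript length and 1.63 with the longest coding one). These scaled ratios rest on the length that the values imply for Ftl1, which may be a divisor of the true length. Of the windows of Ftl1 78.9% occur in other genes, mostly pseudogenes, of which Ftl1-ps1 had 15.0 ± 2.75 FPKM. Hmox2, the constitutive haem oxygenase, had 58.4, 62.6 and 62.0 FPKM (mean 61.0 ± 2.28), while Hmox1, the inducible form and a known Nrf2 target repressed by Bach1, was listed at 0. In the annotation 40.2% of the exonic bases of Hmox2 overlap Cdip1 on the other strand, which had 22.7 ± 0.758 FPKM.

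Of 14 further iron and haem genes 8 were detected. Cp, which encodes the copper ferroxidase ceruloplasmin, had 311 ± 3.34 FPKM, and the biliverdin reductase Blvra, which acts after haem oxygenase, 130 ± 8.69 FPKM. Ireb2, an RNA-binding sensor of iron, had 16.7 ± 0.396 FPKM and Fech, the last enzyme of haem synthesis, 12.6 ± 0.472 FPKM. The transferrin receptor gene Tfrc, the iron exporter Slc40a1 and Blvrb were listed at 0. Genes that many cells use, such as Tfrc and Sephs2, are among those at 0, so every 0 is given as listed and not as absence of the transcript.

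The aliquots were then compared for each gene to see whether they differed beyond sampling noise. The 35 detected genes had a median coefficient of variation of 2.88%, from 0.247% for Txnip to 15.6% for Gclm, beside 4.69% over all detected rows, which include many genes of lower depth. A chi-square test of the recovered reads against the library totals, with Benjamini-Hochberg adjustment over all 9120 genes of at least 30 reads, called 0 of the 37 redox genes of that depth, against 1.09% of all genes tested. The smallest adjusted p among them was 0.378, for Fth1, which was also the only one of the 37 with an unadjusted p under 0.05, against 11.4% of all genes. Fth1 was lowest in aliquot 1 by a narrow margin (1518 against 1568 and 1548 FPKM). Within classes of depth, Mgst1 lay above the 95th percentile of all genes and Gclc, Prdx5 and Txnip lay below the 5th. By construction 5% of all genes lie above these limits and 5% below. The few of the 37 genes found outside are near that share and are not thereby unusual. Of the detected genes 12 were highest in aliquot 1, 8 in aliquot 2 and 15 in aliquot 3. Reads of amplified cDNA are not independent molecules, which the test takes them to be.

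**Figure D5:**
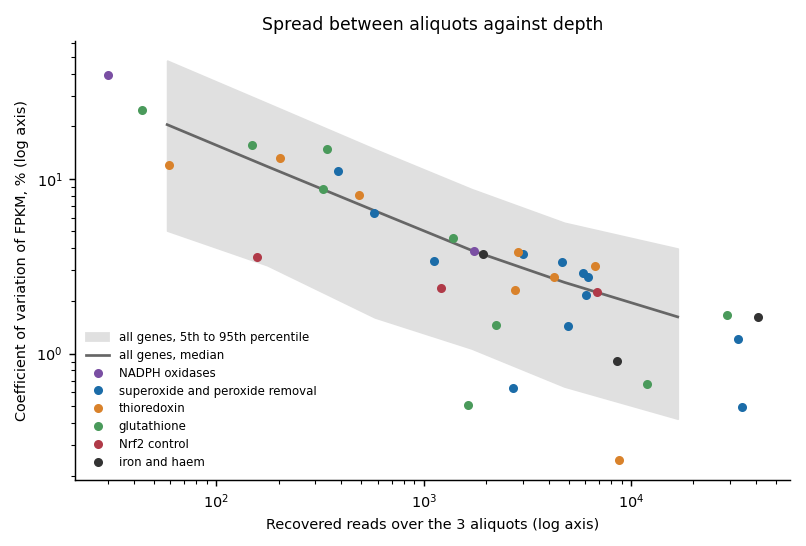
Coefficient of variation of FPKM over the 3 aliquots against recovered reads (both axes log) for the 37 redox genes of at least 30 reads, coloured by role, with the median and the 5th to 95th percentiles of all genes in depth classes as line and band. The spread of the redox genes falls with depth as that of all genes does, and Txnip, at 0.247%, Gclc and Prdx5 lie below the band. By construction 5% of all genes lie below the percentile limits and 5% above.

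Comparisons between genes depend on the length the authors divided by. When the levels were scaled to the longest annotated transcript, Sod1 went from 1655 to 269 FPKM, because that transcript is 3970 bases long and the values imply 646, whereas the longest coding transcript gave 1668 FPKM. Prdx1 went to 489 FPKM, Fth1 to 649 FPKM, Gstm1 to 733 FPKM and Nfe2l2 to 90.7 FPKM. Gclm went from 3.42 to 0.876 FPKM and Txnrd2 from 2.01 to 0.676 FPKM, which would put both under the detection limit. Differences between aliquots do not depend on length.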

How the data were processed

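RNA sequencing of 3 aliquots of 1 cDNA pool was analysed, with 1 group and no contrast. As deposited by the authors, the values are FPKM made, per the submitters' processing notes, with TopHat2 2.0.12, HTSeq 0.6.1 and GRCm38. The sources used here do not give settings, annotation release, strand or gene lengths. Symbols (37607 of 39304 rows) came from the reference name table, and positions and transcripts from GENCODE M21. Members, lists and pairs were chosen with earlier results of these data known. All 54 members are named, and from each further list up to 4 highest detected genes and up to 3 listed at 0. Other genes were chosen after their values were seen.

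The size of 1 read among genes under 0.5 FPKM gave the library totals. Reads per gene came from the smallest length giving whole reads within 0.0001 in each aliquot, or a multiple within 1 base of the mean transcript length, for 11142 of 11142 genes above 0. Reads of some genes, such as Ftl1 (implied length 270) and Cyba (379), may be too low by a whole factor. The chi-square test used scipy 1.17.1 and statsmodels 0.14.6 at an adjusted p of 0.05 and was tested on simulated data. Log2 ratios have no pseudocount, and 8 of 22 pairs, with a gene at 0 in some aliquot, gave none. Windows of 50 bases, a length chosen since the read length is not given, came from the longest transcript of each member. They were sought in annotated transcripts of other genes on their own strand. Of the 35 detected genes 7 had over 5% of windows shared, and 6 had over 5% of exonic bases in exons of other genes. Not all of these are named above. Protein sequences were not used here, and 1 gene of the further lists is not reported here.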

Additional observations from a re-analysis of the deposited data

How the results depend on the processing

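The number of redox genes detected was 35 and ranged from 32 to 37 over limits of 0.5 and 5 FPKM, a mean of 1 FPKM and at least 10 reads in every aliquot (the last chosen after seeing the data, as was the longest coding transcript below). Of the 108 further genes 59 were detected, with a range of 54 to 63. Without 1 aliquot the counts were 35 to 36 and 59 to 61. No redox gene was called beyond sampling noise with 10 or 100 reads as the minimum, with totals taken as the sum of recovered reads, or with an aliquot left out. Leaving out an aliquot gave 0 to 0.0877 FPKM for Gpx3 and 0.0115 to 0.0254 FPKM for Keap1, which rest on 2 reads each. Group medians moved with the choice of members and lengths. Among members above 0 the median was 75.6 FPKM for NADPH oxidases (0 with all members), 95.1 for superoxide and peroxide removal (81.5), 27.3 for thioredoxin (15.2), 15.7 for glutathione (8.06), 1039 for iron and haem (549.8) and 52.3 for all members (14.4). The back-transformed mean of log2(FPKM + 1) was 1.27, 43.1, 13.6, 9.97, 8.65 (Nrf2 control, 9.69 as median), 98.9 and 15.3 FPKM, in that order with Nrf2 control before iron and haem. With the longest transcript length the medians were 48.5 for superoxide and peroxide removal, 13.2 for thioredoxin, 3.30 for glutathione, 5.92 for Nrf2 control, 163 for iron and haem and 9.13 for all members. With the longest coding transcript they were 68.2, 13.2, 5.48, 5.92, 163 and 9.13 FPKM. The iron and haem values rest on the implied length of Ftl1, which may be a divisor of the true length. The log2 ratio of Txnip to Txn1 turned from 0.62 to -0.39 with either length, since the implied length of Txnip is below its longest transcript. The other 13 ratios kept their sign under every alternative but not their size: those of Sod1, Prdx3, Txn1, Txnrd1, Gclc, Gsr and Fth1 to their partners moved by over 1.5 times, as given beside each, and that of Prdx1 to Prdx2 went from 2.77 to 1.98 with either length. The scaled ratio of Fth1 to Ftl1 also rests on the implied length of Ftl1, so its sign with scaled lengths is not certain. No paired analysis was possible because all aliquots belong to 1 group. Depth limits Noxo1, Gpx3, Glrx5, Gsr, Keap1 and Txnrd2, each with fewer than 60 reads.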
